A study of Danio rerio with 8 samples.

Results

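The genes described here encode proteins of the blood clotting system and were chosen by symbol: f2, f5, f7, f10, fga, fgb, fgg, plg, serpinc1 and serpinf2b. In the platform annotation 22 of 43603 probes carried one of these symbols, and they covered 9 of the 10 genes, with 2 or 3 probes each. No probe listed there carried f7, so f7 is not analysed here. The series profiled liver RNA of zebrafish (Danio rerio) kept at different temperatures, with the purpose of selecting temperature-responsive probes for a custom array. On day 28 there were 2 RNA samples each at 18, 26 and 34 °C, and on day 4 there was 1 further sample at 26 °C. The labels used here give no strain, age or sex, name no other treatment and do not say how many fish a sample holds, so p-values measure the spread between these samples only. The 7 RNA samples were hybridised in pairs on 8 Agilent arrays, where a Cy5-labelled and a Cy3-labelled sample compete for the same probes.

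Clotting proteins are made mainly by hepatocytes and secreted into plasma as inactive precursors. In the cascade, factor VII starts the activation of factor X, and factor X together with its cofactor factor V turns prothrombin into thrombin. Thrombin cuts fibrinogen, a protein built from α, β and γ chains, into fibrin. Plasmin dissolves the fibrin clot, and serpins, a family of protease inhibitors, hold both thrombin and plasmin in check. These roles are best known from mammals, and the zebrafish cascade has the same main components.

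The deposited values were log2 ratios, read here as Cy5 over Cy3. No source used here states that direction, which is likely from limma's own definition and from the order of the samples in the array titles. Were it the other way round, each sign below would turn and the sizes would stay. From the 8 ratios each RNA sample was given a level, on the log2 scale and relative to the mean of all 7 samples. Levels show how samples differ for 1 gene and do not compare genes with each other. The table holds no channel intensities, so a probe near background could not be told from one that does not respond, and the presence of liver markers could not be checked in absolute terms.

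In the deposited ratios the warmer sample nearly always had the higher signal. On the 6 arrays that paired 2 samples of day 28, 53 of 54 gene ratios were higher in the warmer sample. Each gene ratio is the mean over a gene's probes. Of 132 single probe ratios, 115 were higher in the warmer sample. Among all probes, 49% to 53.7% had a positive ratio (Cy5 higher) on each of these arrays. These arrays share samples, so the 54 ratios are not independent. On the array of 34 °C replicate 1 against 18 °C replicate 1, the ratios ran from 0.66 for f5 to 2.02 for fgg, with a median of 1.52. The ratios were also positive for all 9 genes on both arrays of 26 °C against 18 °C, where the medians were 0.55 and 0.69. The one exception was serpinc1, at -0.05 on the array of 34 °C replicate 2 against 26 °C replicate 2. The warmer sample carried Cy5 on 3 of these arrays and Cy3 on the other 3.

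**Figure D1:**
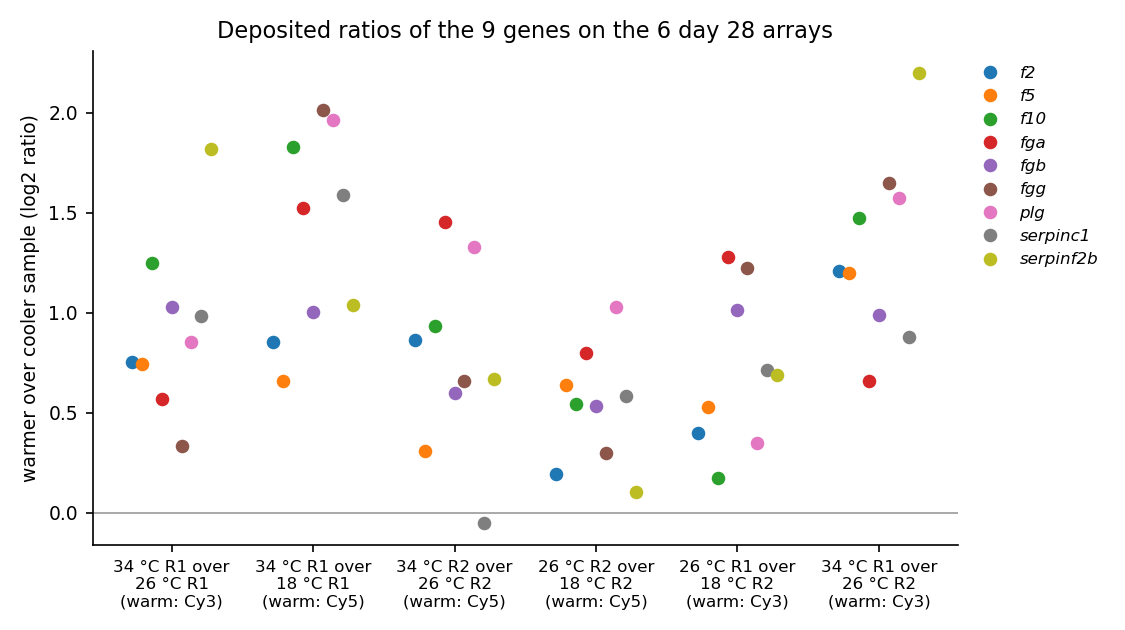
Log2 ratio of the warmer over the cooler sample for each of the 9 genes (colours; mean over the gene's probes) on the 6 arrays that paired day 28 samples (R1 and R2 are replicates 1 and 2; the dye of the warmer sample is in brackets). Of 54 points, 53 lie above 0, and the array of 34 °C replicate 1 over 18 °C replicate 1 has the highest median, 1.52.

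The comparison of 34 °C with 18 °C spans the temperature range. All 9 genes had higher levels at 34 °C, by a median of 1.16 on the log2 scale against 0.0009 over all 35434 features (probes averaged by gene symbol, or unnamed probes on their own). In each gene average both 34 °C samples lay above both 18 °C samples, which was also the case for 18.3% of all features. Those features include 19886 unnamed single probes, while each of the 9 genes is a mean over its probes. Taken singly, a probe each of f2, f5, f10, fgb, fgg and serpinc1 overlapped between these temperatures. By limma, with p-values adjusted over all features by the Benjamini-Hochberg method and a threshold of 0.05, 2 of the 9 rose. They were f10 and serpinf2b. Over all features 0.485% rose at 34 °C against 18 °C. An unadjusted p below 0.05 was reached by 7 of the 9, all positive, against 6.14% of all features positive at that level and 7.71% negative.

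Among the genes of thrombin formation, f10 encodes factor X, the protease that cuts prothrombin. Its levels were 1.15 and 0.76 at 34 °C (replicates 1 and 2), -0.26 and -0.19 at 26 °C, -0.70 and -0.58 at 18 °C, and -0.19 on day 4. In this average over probes the 3 temperatures of day 28 did not overlap, with 34 °C highest and 18 °C lowest. In each single f10 probe the 26 and 18 °C samples overlapped. In the second probe the 34 °C samples overlapped with both as well. The difference of 34 °C from 18 °C was 1.6 ± 0.14 (SE, n = 2 against 2, limma adjusted p = 0.0387), or 3.02-fold.

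The cofactor factor V gene, f5, did not pass. Its levels were 0.59 and 0.30 at 34 °C, -0.21 and -0.21 at 26 °C, -0.27 and -0.79 at 18 °C, and 0.59 on day 4. Both 34 °C samples were above all 4 of the other day 28 samples, and the day 4 sample was as high as the higher of them. The difference of 34 °C from 18 °C was 0.98 ± 0.20 (adjusted p = 0.114).

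For f2, which encodes prothrombin, replicates differed about as much as temperatures. Its levels were 0.76 and 0.08 at 34 °C, -0.13 and -0.62 at 26 °C, 0.07 and -0.67 at 18 °C, and 0.51 on day 4. Replicate 1 exceeded replicate 2 at each temperature, and the lower 34 °C sample lay just above the higher 18 °C sample. The difference of 34 °C from 18 °C was 0.72 ± 0.37 (adjusted p = 0.550), the smallest of the 9.

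The fibrinogen chains had positive differences without passing. The α chain gene fga had the closest 34 °C replicates of the 9 genes, with levels of 0.84 and 0.83. Its probes differed more, in opposite directions. Replicate 1 minus replicate 2 at 34 °C was -0.36 for the first probe and 0.38 for the second. The levels of fga were 0.23 and -0.32 at 26 °C and -0.38 and -1.08 at 18 °C. The 3 temperatures did not overlap for the fga average. Its first probe overlapped between 26 and 18 °C, and its second between 34 and 26 °C. The difference of 34 °C from 18 °C was 1.56 ± 0.30 (adjusted p = 0.102).

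The β chain gene fgb had levels of 0.84 and 0.28 at 34 °C, -0.06 and -0.29 at 26 °C, and -0.14 and -0.95 at 18 °C. The 34 °C samples stood above the rest of day 28, while the 26 and 18 °C samples overlapped. The difference was 1.1 ± 0.33 (adjusted p = 0.245).

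The γ chain gene fgg was set apart by its replicates. Its levels were 1.32 and -0.12 at 34 °C, 0.78 and -0.56 at 26 °C, and -0.47 and -0.65 at 18 °C. Replicate 1 was 1.44 above replicate 2 at 34 °C and 1.34 above it at 26 °C, wider gaps than in any other of the 9 gene averages. The gaps at 34 and 26 °C were 0.62 and 0.95 in the first fgg probe, and 2.26 and 1.73 in the second. The first fgb probe had gaps of 1.71 and 1.34, which were smaller in the fgb average. The 34 and 26 °C samples overlapped in the fgg average and in its second probe, but not in its first. The difference of 34 °C from 18 °C, 1.16 ± 0.65, did not pass (adjusted p = 0.610). On day 4 the levels were -0.11 for fga, 0.33 for fgb and -0.31 for fgg, so the 3 chains did not keep the same order of samples.

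Among inhibitors and fibrinolysis genes, serpinf2b had the largest difference of the 9. It is one of the zebrafish genes for α2-antiplasmin, which in mammals blocks plasmin. Its levels were 1.11 and 0.90 at 34 °C, -0.39 and -0.34 at 26 °C, -0.50 and -0.76 at 18 °C, and -0.03 on day 4. The 34 °C samples stood well apart, and the 26 and 18 °C samples did not overlap but lay close. In each single serpinf2b probe the 26 and 18 °C samples overlapped. The difference of 34 °C from 18 °C was 1.64 ± 0.12 (limma adjusted p = 0.0341), or 3.11-fold. That error measures the spread between sample levels. The fit of the levels to the array ratios left a larger residual, 0.43. The array of 34 °C replicate 1 against 18 °C replicate 1 itself gave 1.04 for serpinf2b. Residuals also exceeded the errors for f10 (0.29 against 0.14), f5 (0.45 against 0.20) and fga (0.46 against 0.30), and not for the other genes.

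The gene plg encodes plasminogen, the precursor of plasmin, the protease that serpinf2b's product inhibits. Its levels were 1.29 and 0.46 at 34 °C, -0.11 and -0.51 at 26 °C, -0.32 and -1.0 at 18 °C, and 0.19 on day 4. The 34 °C samples were the highest of day 28 and the other temperatures overlapped. The difference was 1.53 ± 0.38 (adjusted p = 0.164), close in size to that of serpinf2b with a standard error about as wide as that of f2.

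Antithrombin, the main plasma inhibitor of thrombin and factor X, is encoded by serpinc1. Its levels were 0.99 and 0.11 at 34 °C, 0.09 and 0.12 at 26 °C, -0.64 and -0.54 at 18 °C, and -0.13 on day 4. Here 34 °C replicate 2 lay among the 26 °C samples, and the 18 °C samples were lowest. The difference of 34 °C from 18 °C was 1.14 ± 0.29 (adjusted p = 0.181).

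**Figure D2:**
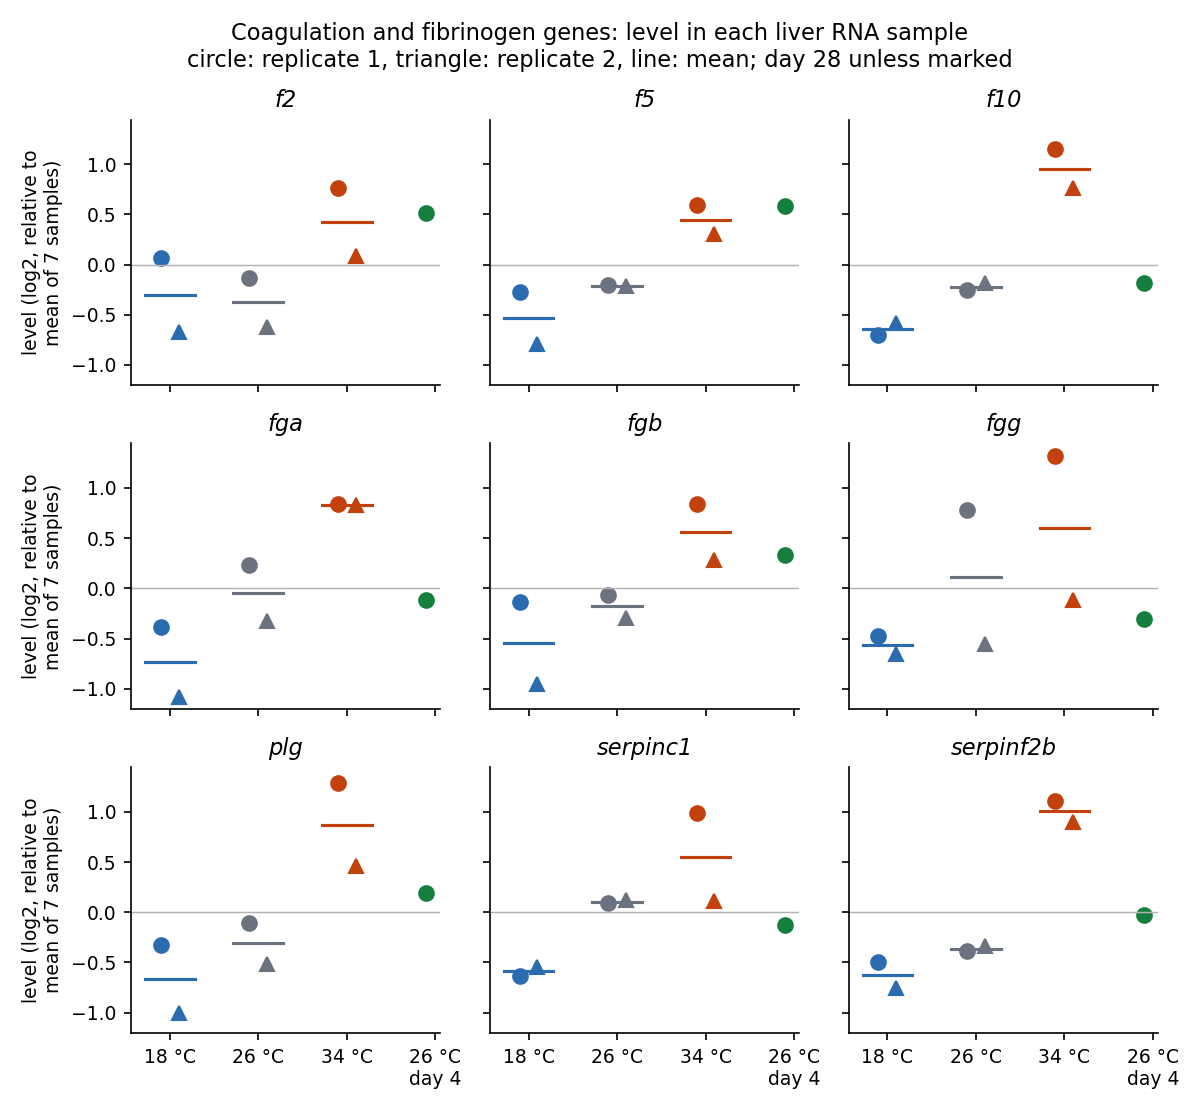
Level of each of the 9 genes (log2, relative to the mean of the 7 RNA samples) by temperature on day 28 and in the day 4 sample, with circles for replicate 1, triangles for replicate 2 and lines for the mean. In all 9 panels both 34 °C samples lie above both 18 °C samples, and the gap between replicates is widest for fgg.

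Across the 9 genes, 34 °C replicate 1 was the highest of the 7 samples in 9 of 9, and 18 °C replicate 2 was the lowest in 7, with 18 °C replicate 1 lowest in f10 and serpinc1. Replicate 1 exceeded replicate 2 in all 9 genes at 34 °C, in 6 at 26 °C and in 7 at 18 °C, against 51.4%, 52.2% and 50.8% of all features. The median size of the replicate difference was 0.56, 0.23 and 0.52 for the 9 genes, and 0.09, 0.06 and 0.08 over all features. The median level of the 9 genes was 0.99 and 0.30 in the 34 °C samples, -0.11 and -0.32 at 26 °C, -0.38 and -0.76 at 18 °C, and -0.03 on day 4. Group means ran in the order 34, 26 and 18 °C in 8 of 9 genes, f2 being the exception with means of -0.30 at 18 °C and -0.38 at 26 °C.

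Both calls were made on the average over probes, and none of the 22 probes passed on its own, where 0.518% of all 43603 probes passed. The lowest adjusted p among the 22 at 34 °C against 18 °C was 0.0781, for a serpinc1 probe. Of the 22 probes, 20 were positive, with differences from -0.54 to 2.57. The 3 f10 probes, numbered in the order of their identifiers, gave 2.57 ± 0.56, 0.12 ± 0.22 and 2.1 ± 0.51. The second thus lay near 0, and the other two were larger than the gene average of 1.6.

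The standard error of the f10 average, 0.14, was smaller than that of each of its probes. At 18 °C the first f10 probe was 1.28 lower in replicate 1 than in replicate 2 (-1.28), while probe 3 was higher by 0.85. At 26 °C the first probe was higher in replicate 1 by 0.62 and probe 3 lower (-1.24). Replicate deviations of opposite sign thus cancelled in the average.

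The same was seen for serpinf2b, whose 2 probes gave 1.99 ± 0.50 and 1.28 ± 0.42 at 34 °C against 18 °C. Replicate 1 minus replicate 2 was 1.03 and -0.51 for these probes at 18 °C, and -1.05 and 0.94 at 26 °C. The average had a standard error of 0.12, below both. In 3 of the 9 genes, f5, f10 and serpinf2b, the standard error of the average was lower than that of every probe.

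Probes of one gene also differed in size of response. For f5, 2 probes gave 1.61 ± 0.28 and 1.42 ± 0.30, and probe 3 gave -0.09 ± 0.20. That probe exceeded 0.5 in size on 1 of the 8 arrays, against 7 for each of the other two. The f2 probes ranged from -0.54 ± 0.46 to 1.77 ± 0.55, and f2 and f5 were the genes with probes of opposite sign in this comparison. The 3 fgb probes gave 1.11 ± 0.73, 1.48 ± 1.04 and 0.72 ± 0.30, the 2 fgg probes 1.54 ± 0.40 and 0.78 ± 0.95, and the 2 fga probes 1.85 ± 0.46 and 1.28 ± 0.24. Each fibrinogen probe was positive, and the standard errors of the first 2 fgb probes and the second fgg probe were the widest of the 22. The 2 plg probes gave 2.13 ± 0.51 and 0.94 ± 0.27, and the 2 serpinc1 probes 0.81 ± 0.47 and 1.47 ± 0.21.

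**Figure D3:**
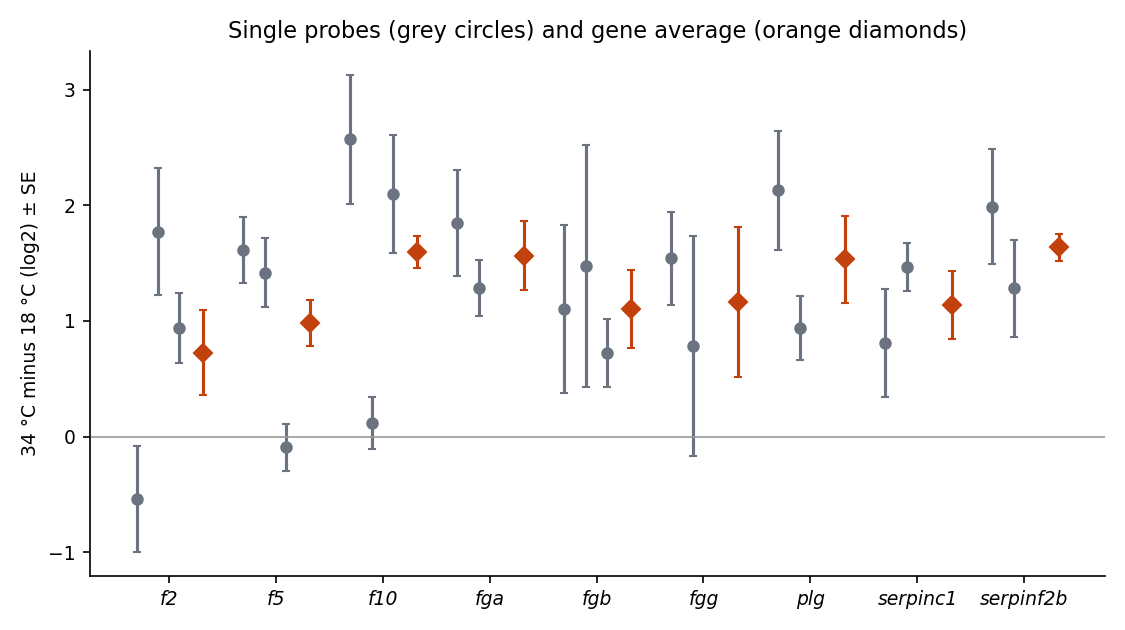
Difference of 34 °C from 18 °C on day 28 (log2, bars are limma's standard error) for each of the 22 probes (grey circles, in the order of their identifiers) and for the 9 gene averages (orange diamonds). The averages of f10 and serpinf2b have shorter bars than each of their probes, and one probe each of f2, f5 and f10 lies near or below 0.

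When any 1 of the 7 RNA samples was left out, limma called 0 of all features in place of 348, so both calls were lost with all others (lowest adjusted p among the 9 genes 0.117 to 0.424). In sign, f10 and serpinf2b stayed positive in 25 of 25 alternatives to the averaged-probe fit, at 1.2 to 2.06 and 0.86 to 2.53. So did serpinc1, which was not called, with 0.14 as its lowest value. The other genes turned in sign only in fits with a cell type marker median as a covariate, given below. Several of these alternatives gave identical values, so they are not 25 separate checks. Scale normalization of the arrays and the 2 groups compared alone also left 0 calls over all features. Limma fitted directly on the arrays, which treats arrays that share a sample as independent, called 7 of the 9 and 8.45% of all features.

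In the fit of all samples the step from 26 to 34 °C made up most of the difference for the called genes. For serpinf2b this changed in a fit without 34 °C replicate 1, which left 5 arrays and no dye term. Its value was then 0.38 at 34 °C against 26 °C and -1.28 at 18 °C against 26 °C. The parts of the sample, the arrays and the dye term in this change were not tested. At 34 °C against 26 °C all 9 genes were positive, with a median of 0.80 against 0.0005 over all features. The differences were 1.37 ± 0.12 for serpinf2b (2.58-fold, adjusted p = 0.149), 1.18 ± 0.14 for f10 (2.26-fold, adjusted p = 0.198) and 1.18 ± 0.38 for plg (2.27-fold, adjusted p = 0.456). None of the 9 passed by limma, as was so for all features (0% called), while 5 of the 9 had an unadjusted p below 0.05 (2.95% of all features were positive at that level) and limma on the arrays directly called f10 and serpinf2b among 3.87% of all features. In 7 of the 9 genes both 34 °C samples lay above both 26 °C samples, which 18.6% of all features also showed. The exceptions were fgg (0.49 ± 0.65) and serpinc1 (0.44 ± 0.29). These levels are averages over probes. Taken singly, some probes of f2, f5, f10, fga and fgb overlapped between 34 and 26 °C, and no probe of plg or serpinf2b did. The first fgg probe and the second serpinc1 probe did not overlap.

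The other differences of 34 °C from 26 °C were 0.80 ± 0.37 for f2, 0.66 ± 0.20 for f5, 0.88 ± 0.30 for fga and 0.73 ± 0.33 for fgb. Leaving out 1 sample or array turned the sign for fga, fgg, plg and serpinc1. For plg the value was -0.09 without 26 °C replicate 2, a fit that also had 5 arrays and no dye term. For fga it was -0.34 without the array of 34 °C replicate 2 against 26 °C replicate 2.

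Between 26 and 18 °C, of the 9 genes, 8 were lower at 18 °C, with a median difference of -0.37 against -0.0008 over all features. The largest sizes were -0.69 ± 0.29 for serpinc1, -0.69 ± 0.30 for fga and -0.67 ± 0.65 for fgg. None passed (limma adjusted p at least 0.975), 1 had an unadjusted p below 0.05, f10 at -0.42 ± 0.14 (2.69% of all features were negative at that level), and limma on the arrays directly called 0 of the 9 and 0.0818% of all features. Over all features 0.00282% were called as lower at 18 °C. Groups did not overlap in 5 of the 9 genes, f5, f10, fga, serpinc1 and serpinf2b, against 13.5% of all features lower at 18 °C without overlap. These levels are averages over probes. Taken singly, each probe of f10 and serpinf2b overlapped between the groups, as did some probes of f5 and fga, while neither serpinc1 probe did. Only f10 and serpinc1 kept a negative sign in each of the 15 fits without 1 sample or array, some of which gave identical values. In these fits f10 lay between -0.97 and -0.11 and serpinc1 between -0.79 and -0.55.

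The steps from 26 to 34 °C and from 26 to 18 °C share the 26 °C samples. For serpinf2b they were 1.37 and -0.27, and for serpinc1 0.44 and -0.69. Whether the steps differ in size was not tested.

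**Figure D4:**
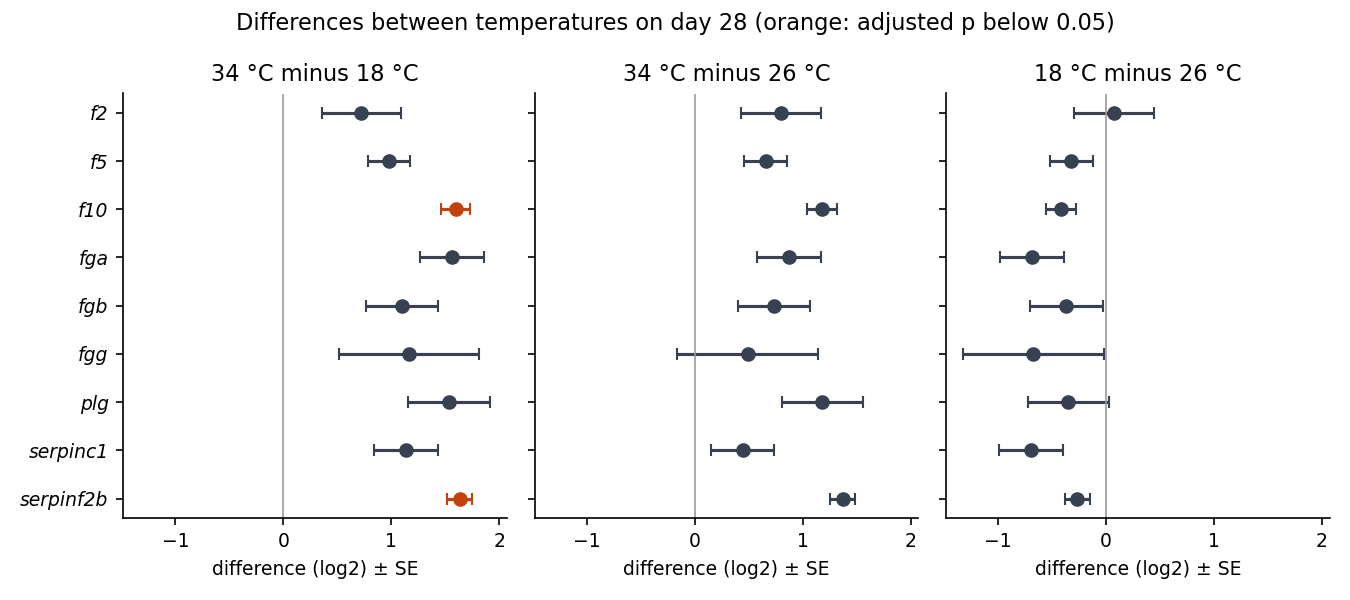
Differences between temperatures on day 28 for the 9 genes (log2, points are limma estimates and bars its standard errors; orange marks an adjusted p below 0.05). The 9 points of 34 °C minus 18 °C and of 34 °C minus 26 °C lie above 0, and 8 of the 9 points of 18 °C minus 26 °C lie below it.

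The day 4 sample at 26 °C had no replicate and was assumed to vary like the others. Against 26 °C on day 28, 6 of 9 genes were higher, with a median of 0.34, and none passed by limma (lowest adjusted p = 0.645), as was so for all features (0% called). The differences ran from 0.89 ± 0.45 for f2 and 0.80 ± 0.24 for f5 to -0.42 ± 0.80 for fgg. The f5 value was the only one of the 9 with an unadjusted p below 0.05 (0.0246, with 2.52% of all features positive at that level), and limma on the arrays directly called 0 of all features. The day 4 sample lay above both 26 °C samples of day 28 in 6 genes and below both in 1, serpinc1, against 38.8% and 40.3% of all features. All 9 genes had probes of opposite sign here. Measured directly against 34 °C replicate 2 on one array, the day 4 ratios ran from -1.50 for serpinf2b and -0.97 for f10 to 0.59 for f2. The day 4 level lay between the 18 and 34 °C means in 7 of 9 genes and above the 34 °C mean in f2 and f5.

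Other genes of clotting, its inhibitors, fibrinolysis and vitamin K use went both ways. Of 52 listed genes 30 were measured, and at 34 °C against 18 °C 18 were positive and 12 negative, with a median of 0.05. None passed by limma (lowest adjusted p = 0.0671). An unadjusted p below 0.05 was reached by 9 positive and 4 negative ones, against the 6.14% and 7.71% of all features. Differences within 0.1 of 0 were found for 9 of the 30, among them the plasminogen activator genes plat (0.05 ± 0.05) and plaub (-0.00 ± 0.04).

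The highest values of that list were 2.14 ± 0.35 for f9a, a gene for factor IX, which activates factor X (adjusted p = 0.0796), and 2.08 ± 0.43 for f7i, a relative of the factor VII gene (adjusted p = 0.121). The levels of f9a were 1.85 and 0.87 at 34 °C and -0.65 and -0.90 at 18 °C, and those of f7i were 1.54 and 1.11 against -0.89 and -0.62. Neither gene overlapped between these temperatures, but both were picked for their high values. Of the 30 genes, 13 were higher and 6 lower at 34 °C without overlap, against 18.3% and 18.6% of all features. The lowest values were -1.35 ± 0.22 for f2rl1.1, a receptor of the protease-activated family (adjusted p = 0.0778), and -0.78 ± 0.18 for serpine2, a protease inhibitor of tissues (adjusted p = 0.143).

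Vitamin K-dependent proteins, which carry the calcium-binding carboxyl groups shared by prothrombin and factor X, were picked out after their values were seen. Beside f9a and f7i they gave 1.49 ± 0.25 for f7l, 1.15 ± 0.25 for f9b, 0.90 ± 0.30 for the protein C gene proca and 0.19 ± 0.12 for the protein Z gene proza. Protein S, the cofactor of protein C, stood on the other side, with -0.70 ± 0.26 for pros1. None of these passed. In the RefSeq gene table of the GRCz12tu assembly, f7l, f7, f7i and f10 follow each other without another gene between them, and f7l, f7i and f10 had positive values of 1.49, 2.08 and 1.6. The second gene for α2-antiplasmin, serpinf2a, gave 1.65 ± 0.47 (adjusted p = 0.217), beside 1.64 ± 0.12 for serpinf2b.

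Some of the cell type marker lists, those of hepatocytes, oocytes and exocrine pancreas, also differed between 34 and 18 °C. Of 19 measured hepatocyte markers 18 were higher at 34 °C than at 18 °C, 17 without overlap and 1 called, with a median of 1.58. Over all features 18.3% were higher without overlap and 0.485% were called as higher. Their median level was 1.35 and 0.40 in the 34 °C samples, 0.13 and -0.34 at 26 °C, -0.59 and -1.03 at 18 °C, and -0.23 on day 4. The 7 samples thus stood in nearly the same order as for the clotting genes. In such tissue samples fewer cells of a type and less RNA per cell cannot be told apart.

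Oocyte markers went the opposite way. All 16 measured ones were lower at 34 °C than at 18 °C without overlap, 3 of them called, with a median of -2.41. Over all features 18.6% were lower at 34 °C without overlap and 0.497% were called as lower. Their median level was -1.27 and -0.93 at 34 °C, 0.06 and 0.18 at 26 °C, 0.81 and 1.67 at 18 °C, and -0.31 on day 4. Exocrine pancreas markers had 19 of 21 positive and none called, with a median of 1.56. At 34 °C 13 were higher without overlap, against 18.3% of all features. Their median level was 0.90 and 0.22 at 34 °C, 0.80 and -1.18 at 26 °C, -1.42 and -0.32 at 18 °C, and 0.93 on day 4. The 26 °C replicates thus lay near both ends of this range. Medians at 34 °C against 18 °C were 0.09 for 7 thrombocyte, 0.00 for 6 erythrocyte, 0.02 for 7 endothelial, 0.12 for 8 leukocyte and 0.18 for 5 biliary markers, with no gene called in these lists. Single markers went further, from -2.38 to 0.65 in the biliary list and from -0.02 to 1.03 in the leukocyte list. The part of the hepatocyte, oocyte or pancreas markers in the clotting results was not tested. The fits with a marker median as a covariate cannot decide it. With 7 samples in 4 groups they have few degrees of freedom, and the hepatocyte and oocyte medians differed between the temperatures.

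**Figure D5:**
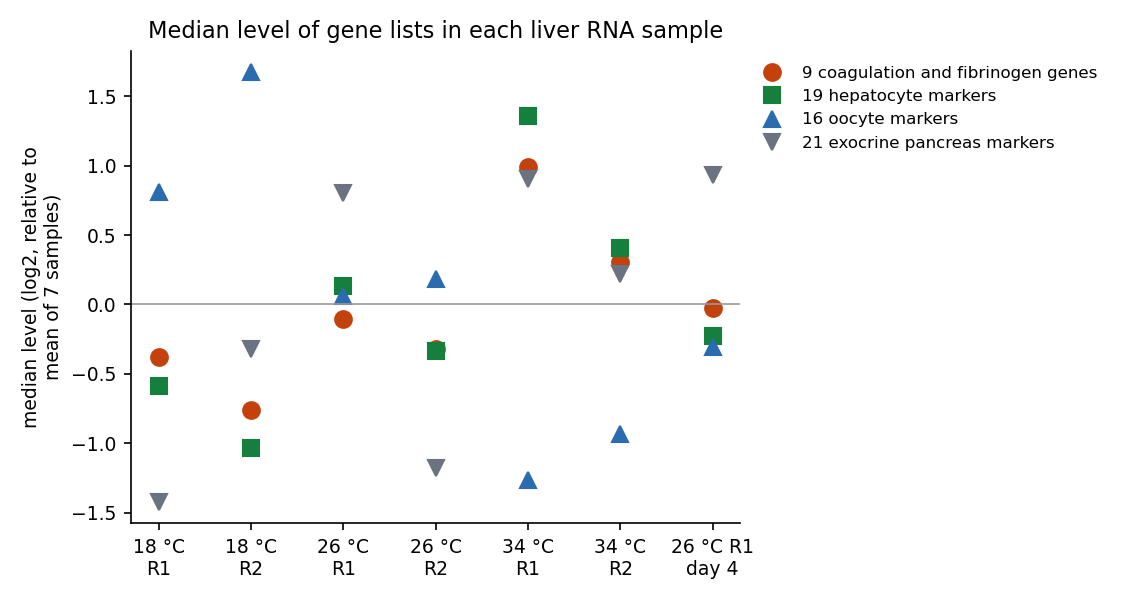
Median level (log2, relative to the mean of the 7 RNA samples) of the 9 clotting genes and of the hepatocyte, oocyte and exocrine pancreas marker lists in each RNA sample (R1 and R2 are replicates 1 and 2). Clotting and hepatocyte medians are highest in 34 °C replicate 1 (0.99 and 1.35) and lowest in 18 °C replicate 2 (-0.76 and -1.03), where the oocyte median is highest (1.67).

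Relative to the hepatocyte marker median of the same sample, none of the 9 genes had a higher mean at 34 than at 18 °C. Means at 34 °C were above those at 26 °C for f10 (0.08 against -0.12), plg (-0.0052 against -0.21) and serpinf2b (0.13 against -0.26). For the other genes they were below those at 26 °C. The difference of 34 °C from 18 °C on this scale was negative for all 9, with a median of -0.53, from -0.96 for f2 to -0.05 for serpinf2b. Over all features the median on this scale was -1.69, since the hepatocyte median itself is subtracted, and 97.6% had both 18 °C samples above both 34 °C samples. This was so for f2, f5, fgb, fgg and serpinc1, and for f10, fga, plg and serpinf2b the samples overlapped. With the oocyte marker median as a covariate 0 of all features passed at 34 °C against 18 °C, the 9 genes among them, and 3 of the 9 stayed positive, f10, serpinc1 and serpinf2b. With the hepatocyte marker median, a covariate added after the data were seen, 0 of all features passed and 5 of the 9 stayed positive.

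The features most like the 9 genes were found by Pearson's r with their median level over the 7 RNA samples, among 3237 named features whose levels had an SD of at least 0.3. They were cox5b2, a subunit of cytochrome c oxidase (r = 0.992), klhl24b (0.989), mst1, a plasminogen-related protein of liver (0.989), ptprfb, a receptor phosphatase (0.987), and dio2, a deiodinase of thyroid hormone (0.986). The levels of mst1 were 1.45 and 0.68 at 34 °C, -0.07 and -0.37 at 26 °C, and -0.46 and -1.01 at 18 °C. The most opposite were ints12 (r = -0.990) and si:dkeyp-46h3.6 (r = -0.987). Among the 9 genes, plg was closest to their median (r = 0.989) and fgg farthest (r = 0.804). With 7 samples linked by shared arrays, an r of at least 0.9 was reached by 227 of the 3237 features.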

How the data were processed

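Liver RNA was measured on 8 2-colour Agilent arrays joining 7 RNA samples in a loop. For each probe, the authors deposited log2 ratios of both channels on every array, made with limma (no version) per the submitters' processing notes. How background was corrected and arrays were normalized is not stated in the labels or notes. The log base was inferred as 2: values reached -8.96, and a scanner with 16 bits gives log10 ratios of at most 4.82. Array medians lay between -0.000725 and 0.00385, and no value was missing. The number of arrays limits the precision.

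Probes were named by the platform annotation and updated through a RefSeq gene table (54.4% named), and probes of 1 symbol were averaged. A least-squares fit of the 8 ratios on 7 samples plus a dye term left 1 residual degree of freedom per feature. Limma 3.58.1 (R 4.3.3; lmFit, eBayes) then compared the 4 groups on these levels (residual degrees of freedom 3, prior 1.63); errors are its moderated standard errors. The shared arrays correlate the sample levels, which this step ignores. The steps were run on simulated arrays with independent sample levels, a constant dye term and no array noise. The effect of shared arrays on the p-values was thus not tested.

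The 10 genes, the lists and the tests were chosen with earlier results of these data known. By rule the text names all members, the 2 highest and 2 lowest genes of the clotting list, and the 5 features most like and 2 least like the members. Outside that rule it also names plat, plaub, serpinf2a and the vitamin K-dependent genes f7l, f9b, proca, proza and pros1. A planned motif search was not run.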

Additional observations from a re-analysis of the deposited data

How the results depend on the processing

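At 34 °C against 18 °C the count of 2 genes called became 1 without the dye term (f10), 1 with the replicate block (serpinf2b) and 7 with limma on the arrays directly, where the counts over all features were 314, 237 and 2994. It became 0 after scale normalization, with the 2 groups alone, with single probes, and with the oocyte, exocrine pancreas or hepatocyte marker median as a covariate; over all features the count of 348 became 226 with single probes and 0 in the others. It ranged from 0 to 2 when 1 sample or array was left out. Without the array of 26 °C replicate 2 against 34 °C replicate 1 it stayed at 2, and without each of the other 7 arrays or any of the 7 samples it was 0 (0 to 15 over all features). Centring each array on its median and eBayes with robust = TRUE left it at 2. Same-numbered replicates deviated from their group means with correlations of -0.15 (18 and 26 °C), -0.13 (18 and 34 °C) and 0.41 (26 and 34 °C). The levels come from shared arrays, so these correlations cannot decide whether the numbers pair the samples. At 34 °C against 26 °C limma on the arrays directly gave 2 in place of 0, and 1372 over all features. All other counts of the 9 genes were 0 in the alternatives run.

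Signs turned in 89 values, 55 on leaving out a sample or array, 30 under a marker covariate and 4 under other settings. With the oocyte marker median, 34 °C against 18 °C gave -1.77 for f2, -0.49 for f5, -0.27 for fga, -1.38 for fgb, -0.98 for fgg and -0.918 for plg. Against 26 °C, 34 °C gave -0.50, -0.11, -0.0784, -0.56, -0.63 and -0.0966 for the same genes. At 18 °C against 26 °C it gave 0.38 for f5, 0.19 for fga, 0.82 for fgb, 0.35 for fgg, 0.82 for plg and 0.11 for serpinf2b. With the hepatocyte marker median, chosen after seeing the data, 34 °C against 18 °C gave -0.81 for f2, -0.18 for fgb, -1.49 for fgg and -0.0931 for plg, and against 26 °C -0.0931 for f2, -0.0068 for fgb, -1.05 for fgg and -0.14 for serpinc1. At 18 °C against 26 °C it gave 0.17 for fgb, 0.44 for fgg and 0.33 for plg. The f2 value at 18 °C against 26 °C was -0.0296 with limma on the arrays and -0.24 after scale normalization. On day 4 against day 28, limma on the arrays gave 0.0851 for fgg and 0.0914 for serpinc1, and the exocrine pancreas covariate -0.0177 for f10. The cause of these changes was not tested.

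Leaving out 1 sample or array, no gene turned in sign at 34 °C against 18 °C. At 34 °C against 26 °C the values ranged from -0.34 to 1.21 for fga, -0.71 to 1.19 for fgg, -0.0925 to 2.01 for plg and -0.12 to 0.81 for serpinc1. At 18 °C against 26 °C they ranged from -0.29 to 0.45 for f2, -1.17 to 0.15 for f5, -1.17 to 0.18 for fga, -0.77 to 0.13 for fgb, -1.45 to 0.0015 for fgg, -0.94 to 0.45 for plg and -1.28 to 0.19 for serpinf2b. On day 4 against day 28 they ranged from -0.41 to 2.23 for f5, -0.75 to 0.96 for f10, -1.53 to 1.16 for fga, -0.34 to 1.22 for fgb, -1.73 to 0.25 for fgg, -0.95 to 1.76 for plg and -1.12 to 1.82 for serpinf2b. Without 26 °C replicate 2 or 34 °C replicate 1 the dye term could no longer be fitted and was left out. Where leaving out a sample left 1 in a group, that sample was assumed to vary like the other groups. The table gives no intensities, so no filter on dim probes could be tried.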
